A study of Mus musculus with 12 samples.

Results

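Kupffer cells, the resident macrophages of the liver, and macrophages in general were followed through 34 listed genes in term fetal livers with and without *Ppara*. The members were chosen by name, as genes that mark these cells or carry out their work. Of the 34, 33 were matched by symbol to a probeset with 1 gene symbol, out of 19938 genes tested. *Emr1*, which encodes a surface receptor long used to mark mouse macrophages, is carried there under its newer symbol *Adgre1*, and *Slc11a1* was not analysed here. Each of the 33 was measured by 1 probeset.

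Kupffer cells sit in the liver sinusoids, where they engulf aged red cells, dead cells and microbes from the passing blood. Before birth they settle in a liver that still makes blood cells, and their precursors come from the yolk sac and from the fetal liver itself. Macrophages need the receptor encoded by *Csf1r* to survive, and the transcription factor PU.1 switches on many of their genes.

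The tissue was whole liver from mouse fetuses at E19.5 of gestation, taken by cesarean section on the last day of pregnancy, and neither group was treated. The 6 *Ppara*-/- fetuses lacked PPARα, the nuclear receptor that senses fatty acids, in all cells, and the 6 *Ppara*+/+ fetuses carried both intact copies. Both came from heterozygous parents. SV129 is the strain in the labels and C57BL/6 the background in the study's methods. By the methods each genotype drew on fewer litters than livers, which the labels do not tell apart.

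One array was run per liver. Values are log2 signals, so that a difference of 1 is a doubling, and differences are *Ppara*-/- minus *Ppara*+/+. A gene is called here where its adjusted p in limma, corrected over all 19938 genes, is under 0.05. *Ppara* itself averaged 9.83 (9.66 to 9.94) in the 6 *Ppara*-/- livers and 10.84 (10.71 to 10.95) in the 6 *Ppara*+/+ livers, with no overlap, and whether its probeset reaches the disrupted stretch of the gene was not tested. *Xist* and Y-linked transcripts marked 5 females and 1 male (mouse 2) among the *Ppara*-/- fetuses, and 3 females and 3 males (mice 2, 3 and 4) among the *Ppara*+/+ fetuses. Over all genes, *Ppara*-/- mouse 1 lay nearest to the *Ppara*+/+ livers on the first principal component, at -1.9, whereas the other *Ppara*-/- livers lay between 9.8 and 20.9 and the *Ppara*+/+ livers between -21.1 and 3.3. A whole-liver array cannot tell fewer cells of a type from less RNA per cell, and this holds for every value that follows.

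The macrophage genes did not move as a block. Of the 33 members 5 were called higher in *Ppara*-/- livers (*Csf1r*, *Hpgd*, *Mpeg1*, *Fcgr3* and *Cd5l*), 1 was called lower (*Fcgr1*) and 27 were not called. All 6 differences were small, between 1.14-fold and 1.32-fold. The 6 called members are 18.2% of the list, beside 7.24% of all genes called in either direction, 3.42% called higher and 3.82% called lower. Among the 9969 genes above the median in mean signal, fitted and adjusted on their own, 6 of 30 members were called, beside 20.2% of those genes. The median difference was 0.04 over the members, 17 of them positive and 16 negative, and 0.01 over all genes. At an unadjusted p under 0.05 there were 11 members, beside 20.9% of all genes. Among the genes above the median there were 11 of 30 members at that threshold, beside 34.6% of those genes. In 4 members (*Csf1r*, *Mpeg1*, *Fcgr1* and *Fcgr3*) the genotypes did not overlap, which was so in 3.59% of all genes. The share without overlap was not taken among the genes above the median.

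**Figure D1:**
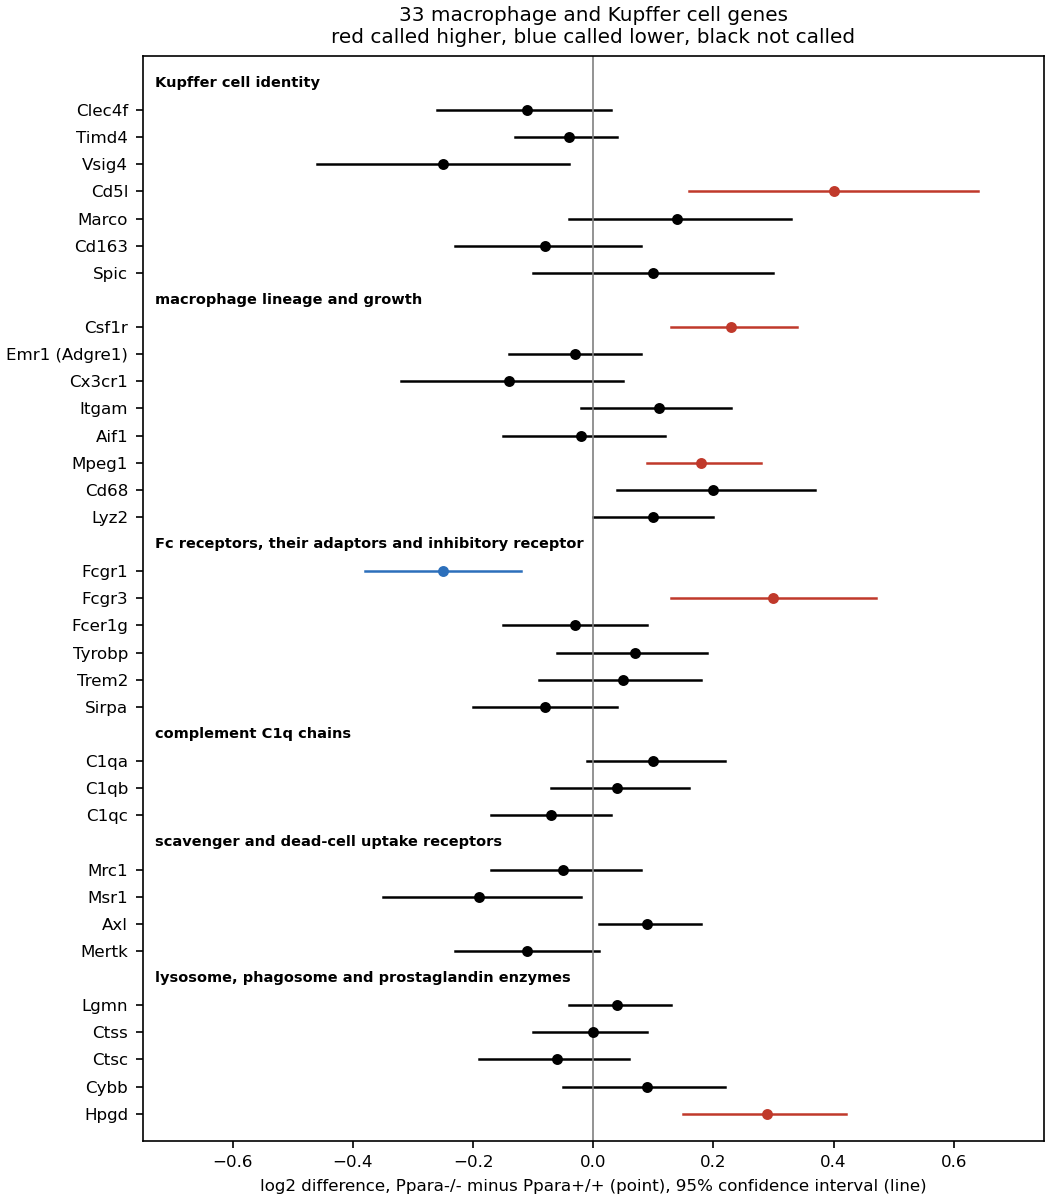
Log2 difference (x axis, *Ppara*-/- minus *Ppara*+/+, with its 95% confidence interval from limma) of the 33 members (y axis), grouped by role. Points lie on both sides of 0 in every group, from -0.25 for *Vsig4* and *Fcgr1* to 0.40 for *Cd5l*, and the 5 red points and the blue point are the called members.

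Among the 7 genes that mark Kupffer cells most closely, 1 was called. *Cd5l* encodes a protein secreted by tissue macrophages that binds lipids and apoptotic debris. Its log2 signal was 8.76, 9.27, 9.33, 9.44, 9.29 and 9.46 in *Ppara*-/- mice 1 to 6, against 8.86, 8.81, 8.64, 8.72, 9.15 and 8.95 in *Ppara*+/+ mice 1 to 6. Only *Ppara*-/- mouse 1 fell within the *Ppara*+/+ range, and the other 5 *Ppara*-/- livers lay above all *Ppara*+/+ livers. *Cd5l* rose by 0.40 on the log2 scale (SE 0.11, adjusted p = 0.041, limma), the largest difference among the 33 members. The call was lost without any 1 of *Ppara*-/- mice 2 to 6 or *Ppara*+/+ mice 1 to 4, that is in 9 of the 12 fits that left out 1 liver, over which the adjusted p ran between 0.0011 (without *Ppara*-/- mouse 1) and 0.099.

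The signal of *Cd5l* also went with the animal number that the labels give each fetus. Of the 5 lowest numbers, *Ppara*-/- mouse 1 read 8.76 and *Ppara*+/+ mice 1 to 4 read 8.64 to 8.86. *Ppara*-/- mice 2 to 6, which hold the next 5 numbers, read 9.27 to 9.46, and *Ppara*+/+ mice 5 and 6, which hold the highest, read 9.15 and 8.95. With the 6 lowest and the 6 highest numbers as a block, the difference in *Cd5l* was 0.29 (adjusted p = 0.063, limma), and it was 0.26 within the lowest and 0.33 within the highest. With the number itself as a covariate the difference was 0.37 and the call was kept (adjusted p = 0.013). What the numbers stand for is not given in the labels, and their part in the result was not tested.

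The other 6 Kupffer cell markers were not called. *Vsig4*, the complement receptor CRIg, read 8.85, 8.34, 8.68, 8.46, 8.23 and 8.39 in *Ppara*-/- livers, against 8.82, 8.73, 8.75, 8.70, 8.96 and 8.50 in *Ppara*+/+ livers. In *Vsig4*, 4 of the *Ppara*-/- livers were lower than any *Ppara*+/+ liver, and the difference was -0.25 (95% confidence interval -0.46 to -0.04, adjusted p = 0.15). It passed the threshold without *Ppara*-/- mouse 1 (adjusted p = 0.024, limma) and with array weights (0.017).

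*Clec4f*, a C-type lectin found on mouse Kupffer cells, read 9.75, 9.48, 9.83, 9.49, 9.51 and 9.61 in *Ppara*-/- livers, against 9.84, 9.83, 9.72, 9.64, 9.71 and 9.61 in *Ppara*+/+ livers. The groups overlapped, with a difference of -0.11 (interval -0.26 to 0.03, adjusted p = 0.40). *Timd4*, a receptor for phosphatidylserine on dying cells, stayed within 8.12 to 8.20 in *Ppara*-/- livers and 8.14 to 8.27 in *Ppara*+/+ livers. In mouse order these were 8.19, 8.12, 8.20, 8.14, 8.18 and 8.17 in *Ppara*-/- livers, against 8.27, 8.14, 8.17, 8.24, 8.27 and 8.19 in *Ppara*+/+ livers. The interval of its difference was -0.13 to 0.04, and only *Ppara*-/- mouse 2 lay below the *Ppara*+/+ range.

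*Marco* is a scavenger receptor for bacteria and particles. It read 7.29, 7.34, 7.35, 7.67, 7.25 and 7.36 in *Ppara*-/- livers, against 7.40, 7.08, 7.03, 7.45, 7.34 and 7.12 in *Ppara*+/+ livers, a difference of 0.14 (interval -0.04 to 0.33). Only *Ppara*-/- mouse 4 lay above the *Ppara*+/+ range. *Spic*, the transcription factor of the macrophages that recycle heme iron, read 8.20, 8.39, 8.78, 8.69, 8.43 and 8.53 in *Ppara*-/- livers, against 8.47, 8.31, 8.41, 8.17, 8.59 and 8.47 in *Ppara*+/+ livers, with a difference of 0.10 (interval -0.10 to 0.30). *Cd163*, the receptor for haptoglobin-bound hemoglobin, read 6.62, 6.60, 6.52, 6.30, 6.49 and 6.26 in *Ppara*-/- livers, against 6.55, 6.51, 6.45, 6.58, 6.74 and 6.41 in *Ppara*+/+ livers, with a difference of -0.08 (interval -0.23 to 0.08). In *Spic* and *Cd163* the groups overlapped. *Cd163*, *Aif1* and *Trem2* were the 3 members whose mean signal lay below the median of all genes. The mean over the 7 Kupffer cell markers ranged between 8.20 and 8.38 in *Ppara*-/- livers and between 8.17 and 8.39 in *Ppara*+/+ livers.

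Of the 8 genes of macrophage lineage and growth, 2 were called, both higher. *Csf1r* encodes the receptor for the growth factors CSF1 and IL-34. It read 10.24, 10.32, 10.50, 10.46, 10.32 and 10.37 in *Ppara*-/- livers, against 10.17, 10.18, 10.07, 10.11, 10.13 and 10.17 in *Ppara*+/+ livers. Every *Ppara*-/- liver lay above every *Ppara*+/+ liver. The difference of 0.23 (SE 0.05, interval 0.13 to 0.34, adjusted p = 0.0096, limma) is 1.18-fold, and it was called whichever liver was left out, with adjusted p between 0.0024 and 0.026. *Csf1r* was also the 1 member called with fetal sex as a covariate, where its difference was 0.22 (adjusted p = 0.033).

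*Mpeg1* encodes perforin-2, a pore-forming protein that macrophages use against engulfed bacteria. It read 8.58, 8.62, 8.76, 8.66, 8.59 and 8.72 in *Ppara*-/- livers, against 8.47, 8.46, 8.42, 8.55, 8.52 and 8.39 in *Ppara*+/+ livers. The groups did not overlap, and *Mpeg1* rose by 0.18 (SE 0.05, adjusted p = 0.025, limma). The call was lost in 5 of the 12 fits that left out 1 liver (*Ppara*-/- mouse 4 or 6, or *Ppara*+/+ mouse 1, 2 or 3), where the adjusted p reached 0.064, and with fetal sex as a covariate (adjusted p = 0.064, difference 0.18).

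The other lineage genes were not called. *Cd68*, a glycoprotein of macrophage endosomes and lysosomes, averaged 9.16 ± 0.14 in *Ppara*-/- livers and 8.95 ± 0.14 in *Ppara*+/+ livers (SD, n = 6 each), a difference of 0.20 (interval 0.04 to 0.37, adjusted p = 0.13) that passed the threshold without *Ppara*-/- mouse 1 (adjusted p = 0.043, limma). *Lyz2*, lysozyme of myeloid cells, differed by 0.10 (adjusted p = 0.23), and *Itgam*, the integrin CD11b, by 0.11 (adjusted p = 0.32). *Lyz2* has a close copy in the mouse, and whether the probeset tells them apart was not tested. *Emr1*, read as *Adgre1*, averaged 9.43 ± 0.07 in *Ppara*-/- livers and 9.46 ± 0.09 in *Ppara*+/+ livers. Its difference of -0.03 had an interval of -0.14 to 0.08. The chemokine receptor gene *Cx3cr1* (-0.14) and *Aif1* (-0.02), which encodes the calcium-binding protein IBA1, were not called either.

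**Figure D2:**
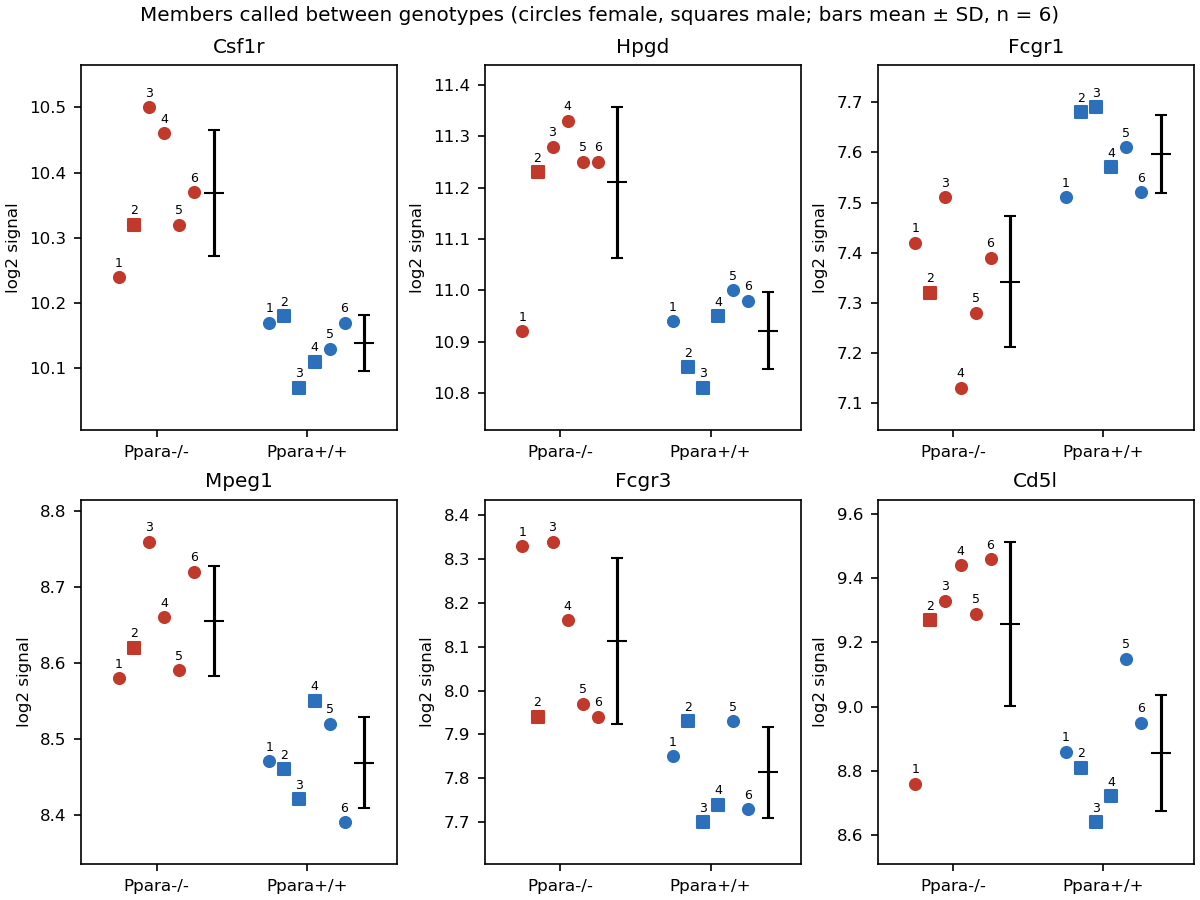
Log2 signal (y axis) of the 6 called members in each of the 6 *Ppara*-/- and 6 *Ppara*+/+ livers, with the mouse number beside each point, circles for females, squares for males, and bars for mean ± SD (n = 6). The groups do not overlap in *Csf1r*, *Fcgr1*, *Mpeg1* and *Fcgr3*, but nearly touch in *Fcgr1* (both at 7.51) and *Fcgr3* (7.94 against 7.93). *Ppara*-/- mouse 1 lies among the *Ppara*+/+ livers in *Hpgd* (10.92) and *Cd5l* (8.76).

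The activating Fc receptors for antibody, through which macrophages take up coated particles, moved in opposite directions. *Fcgr3*, the low-affinity receptor, read 8.33, 7.94, 8.34, 8.16, 7.97 and 7.94 in *Ppara*-/- livers, against 7.85, 7.93, 7.70, 7.74, 7.93 and 7.73 in *Ppara*+/+ livers. *Ppara*-/- mice 1, 3 and 4 were well above the *Ppara*+/+ range, and the other 3 lay just above its top at 7.93. *Fcgr3* rose by 0.30 (SE 0.08, adjusted p = 0.037, limma). The call was lost in 6 of the 12 fits that left out 1 liver (*Ppara*-/- mouse 3 or 4, or *Ppara*+/+ mouse 1, 3, 4 or 6), where the adjusted p reached 0.085. Over part of its length *Fcgr3* closely resembles the inhibitory receptor gene *Fcgr2b*, and whether the probeset tells them apart was not tested.

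*Fcgr1*, the high-affinity receptor, read 7.42, 7.32, 7.51, 7.13, 7.28 and 7.39 in *Ppara*-/- livers, against 7.51, 7.68, 7.69, 7.57, 7.61 and 7.52 in *Ppara*+/+ livers. The values of *Ppara*-/- mouse 3 and *Ppara*+/+ mouse 1 were the same to the second decimal and ordered like the rest beyond it, so that every *Ppara*-/- liver lay below every *Ppara*+/+ liver. *Fcgr1* fell by 0.25 (SE 0.06, adjusted p = 0.021, limma). The call was lost without *Ppara*-/- mouse 2 or 5 and without *Ppara*+/+ mouse 2 or 3, where the adjusted p reached 0.056. The difference of *Fcgr1* was -0.24 within the 6 lowest animal numbers and -0.24 within the 6 highest.

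The signalling adaptors that such receptors share were not called. *Fcer1g*, the common gamma chain that both receptors need, averaged 10.06 ± 0.11 in *Ppara*-/- livers and 10.09 ± 0.08 in *Ppara*+/+ livers (SD, n = 6 each), with an interval of -0.15 to 0.09 for the difference. *Tyrobp*, the adaptor DAP12, averaged 9.89 ± 0.09 in *Ppara*-/- livers and 9.82 ± 0.12 in *Ppara*+/+ livers. *Trem2*, a lipid-sensing receptor that signals through DAP12, differed by 0.05. *Sirpa*, the inhibitory receptor that reads the CD47 signal on healthy cells, differed by -0.08 (interval -0.20 to 0.04).

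Of the 6 enzymes of the lysosome, the phagosome and prostaglandin breakdown, 5 were tested and 1 was called. *Hpgd* encodes the dehydrogenase that inactivates prostaglandins, and cells other than macrophages express it too. It read 10.92, 11.23, 11.28, 11.33, 11.25 and 11.25 in *Ppara*-/- livers, against 10.94, 10.85, 10.81, 10.95, 11.00 and 10.98 in *Ppara*+/+ livers. As for *Cd5l*, *Ppara*-/- mouse 1 fell within the *Ppara*+/+ range and the other 5 *Ppara*-/- livers lay above it. *Hpgd* rose by 0.29 (SE 0.06, adjusted p = 0.016, limma) and was called whichever liver was left out, with adjusted p between 3.0e-04 and 0.044. With fetal sex as a covariate its difference was 0.26 (adjusted p = 0.051). *Hpgd* too went with the animal number. The 5 lowest numbers, *Ppara*-/- mouse 1 and *Ppara*+/+ mice 1 to 4, read 10.81 to 10.95. *Ppara*-/- mice 2 to 6 read 11.23 to 11.33, and *Ppara*+/+ mice 5 and 6 read 11.00 and 10.98. The part of the numbers in this result was not tested.

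The remaining enzymes were not called. *Cybb*, the catalytic subunit of the phagocyte NADPH oxidase, differed by 0.09 (interval -0.05 to 0.22). The lysosomal proteases *Lgmn* (0.04, interval -0.04 to 0.13), *Ctss* (0.00, interval -0.10 to 0.09) and *Ctsc* (-0.06, interval -0.19 to 0.06) had intervals on both sides of 0.

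Among the 4 receptors for scavenging and dead-cell uptake none was called by limma. An unadjusted p under 0.05 was found in 2, beside 20.9% of all genes. *Msr1*, the class A scavenger receptor, averaged 8.97 ± 0.09 in *Ppara*-/- livers and 9.16 ± 0.18 in *Ppara*+/+ livers, a difference of -0.19 (adjusted p = 0.18). It passed the threshold without *Ppara*+/+ mouse 6 (adjusted p = 0.021, limma) and with array weights (0.04). The related kinases *Axl* and *Mertk*, which bind dying cells through bridging proteins, differed by 0.09 (interval 0.01 to 0.18) and -0.11 (interval -0.23 to 0.01). The adjusted p was 0.21 for *Axl* and 0.28 for *Mertk*. The mannose receptor *Mrc1* differed by -0.05 (interval -0.17 to 0.08).

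The 3 chains of C1q, the complement protein that starts the classical pathway and that macrophages make, were not called, and none had an unadjusted p under 0.05. *C1qa* read 9.25, 9.17, 9.40, 9.18, 9.20 and 9.14 in *Ppara*-/- livers, against 9.08, 9.23, 9.18, 9.04, 9.11 and 9.09 in *Ppara*+/+ livers (difference 0.10, interval -0.01 to 0.22). *C1qb* read 10.72, 10.73, 10.92, 10.75, 10.66 and 10.59 in *Ppara*-/- livers, against 10.68, 10.71, 10.70, 10.61, 10.70 and 10.69 in *Ppara*+/+ livers (difference 0.04, interval -0.07 to 0.16). *C1qc* read 9.36, 9.32, 9.43, 9.26, 9.31 and 9.21 in *Ppara*-/- livers, against 9.26, 9.40, 9.44, 9.35, 9.41 and 9.44 in *Ppara*+/+ livers (difference -0.07, interval -0.17 to 0.03). In each of the 3 chains *Ppara*-/- mouse 3 had the highest reading of its genotype and *Ppara*-/- mouse 6 the lowest.

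Whether the chains of C1q, and 3 other pairs of members, vary together from liver to liver was asked with the genotype means removed, over 6 pairs in all. *C1qa* and *C1qb* had r = 0.80 over the 12 livers (permutation test within genotype, p = 0.0024, adjusted over the 6 pairs 0.015) and rho = 0.69 (permutation p = 0.022, adjusted 0.065). *C1qa* and *C1qc* had r = 0.72 (permutation p = 0.014, adjusted 0.042) and rho = 0.78 (permutation p = 0.0063, adjusted 0.038). *C1qb* and *C1qc* had r = 0.67 (permutation p = 0.026, adjusted 0.052) and rho = 0.49 (permutation p = 0.12, adjusted 0.15). These relations leaned on *Ppara*-/- mouse 3. Without the 2 livers farthest from the median, r was 0.57 for *C1qa* with *C1qb*, 0.68 for *C1qa* with *C1qc* and 0.18 for *C1qb* with *C1qc*, and without *Ppara*-/- mouse 3 alone the adjusted p was 0.18 for each of these pairs. *C1qa* with *C1qb* also missed the threshold without *Ppara*-/- mouse 6 (permutation, adjusted 0.089) or *Ppara*+/+ mouse 4 (0.054), and *C1qa* with *C1qc* passed it only without *Ppara*-/- mouse 2 or *Ppara*+/+ mouse 1, 2 or 6, that is in 4 of the 12 cases.

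**Figure D3:**
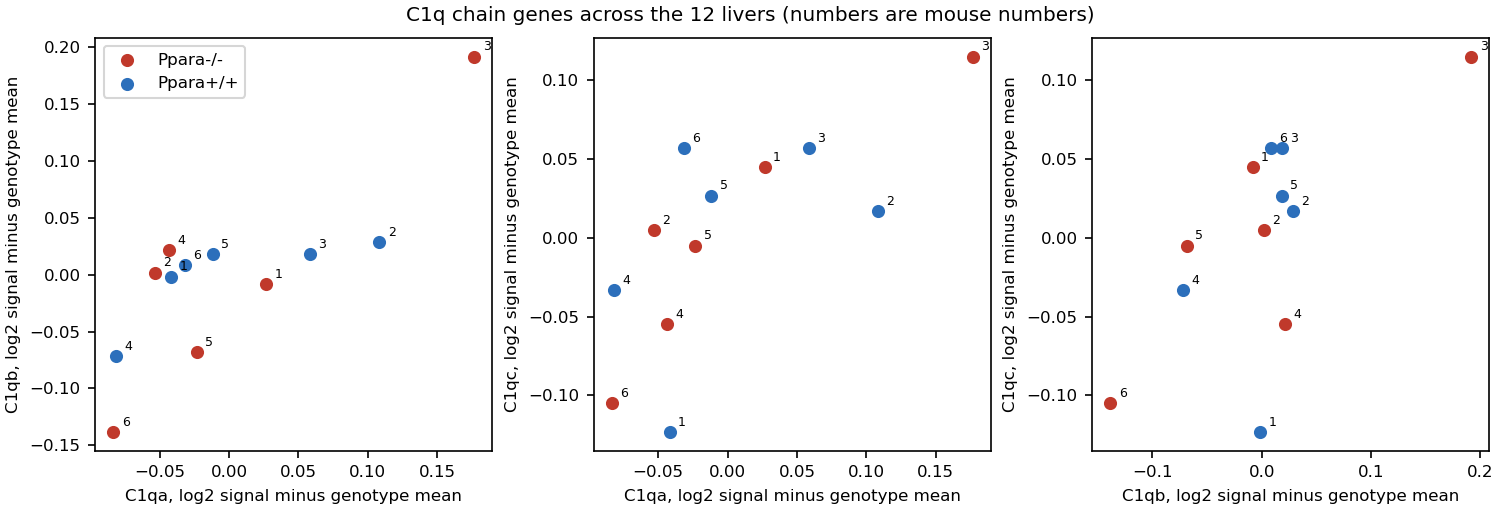
Log2 signal minus the mean of the genotype for the 3 pairs of C1q chains (x and y axes), 1 point per liver with its mouse number, *Ppara*-/- in red and *Ppara*+/+ in blue. The point of *Ppara*-/- mouse 3 lies at the upper right in every panel, and r is 0.80, 0.72 and 0.67.

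The other pairs did not pass the threshold over all 12 livers. Leaving out 1 liver, *Fcer1g* with *Tyrobp* passed it without *Ppara*+/+ mouse 1 (permutation p = 0.011, adjusted 0.02) or 2 (0.037, adjusted 0.044), and *Clec4f* with *Timd4* without *Ppara*+/+ mouse 2 (r = 0.62, permutation p = 0.032, adjusted 0.044). *Fcer1g* and *Tyrobp* had r = 0.60 (permutation p = 0.04, adjusted 0.059) and rho = 0.57 (permutation p = 0.073, adjusted 0.15), with r = 0.47 without the 2 farthest livers. *Clec4f* and *Timd4* had r = 0.34 (permutation p = 0.24, adjusted 0.29) and rho = 0.43 (permutation p = 0.12, adjusted 0.15), with r = 0.16 without the 2 farthest. *Csf1r* and *Adgre1* had r = -0.26 (permutation p = 0.41, adjusted 0.41) and rho = -0.13 (permutation p = 0.72, adjusted 0.72), with r = -0.23 without the 2 farthest. Over all 528 pairs of members the mean r was 0.18 and 367 pairs were above 0, beside a mean of 0.00 over pairs of all genes. These pairs share the same 12 arrays, and the figures are a description. Processing brought the arrays to 1 distribution, which holds the mean over all genes near 0, so it is no baseline for the members.

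Across the list, *Ppara*-/- mouse 3 had the highest signal of its genotype in 21 of the 33 members. Among the *Ppara*+/+ livers, mouse 5 was highest in 12 members and mouse 6 lowest in 13. The mean over the members was 9.20 in *Ppara*-/- mouse 3 and 9.06 to 9.10 in the other *Ppara*-/- livers, against 9.13 in *Ppara*+/+ mouse 5, 9.01 in *Ppara*+/+ mouse 6 and 9.05 to 9.08 in the other *Ppara*+/+ livers. The genotypes thus overlapped in the mean level of the list.

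**Figure D4:**
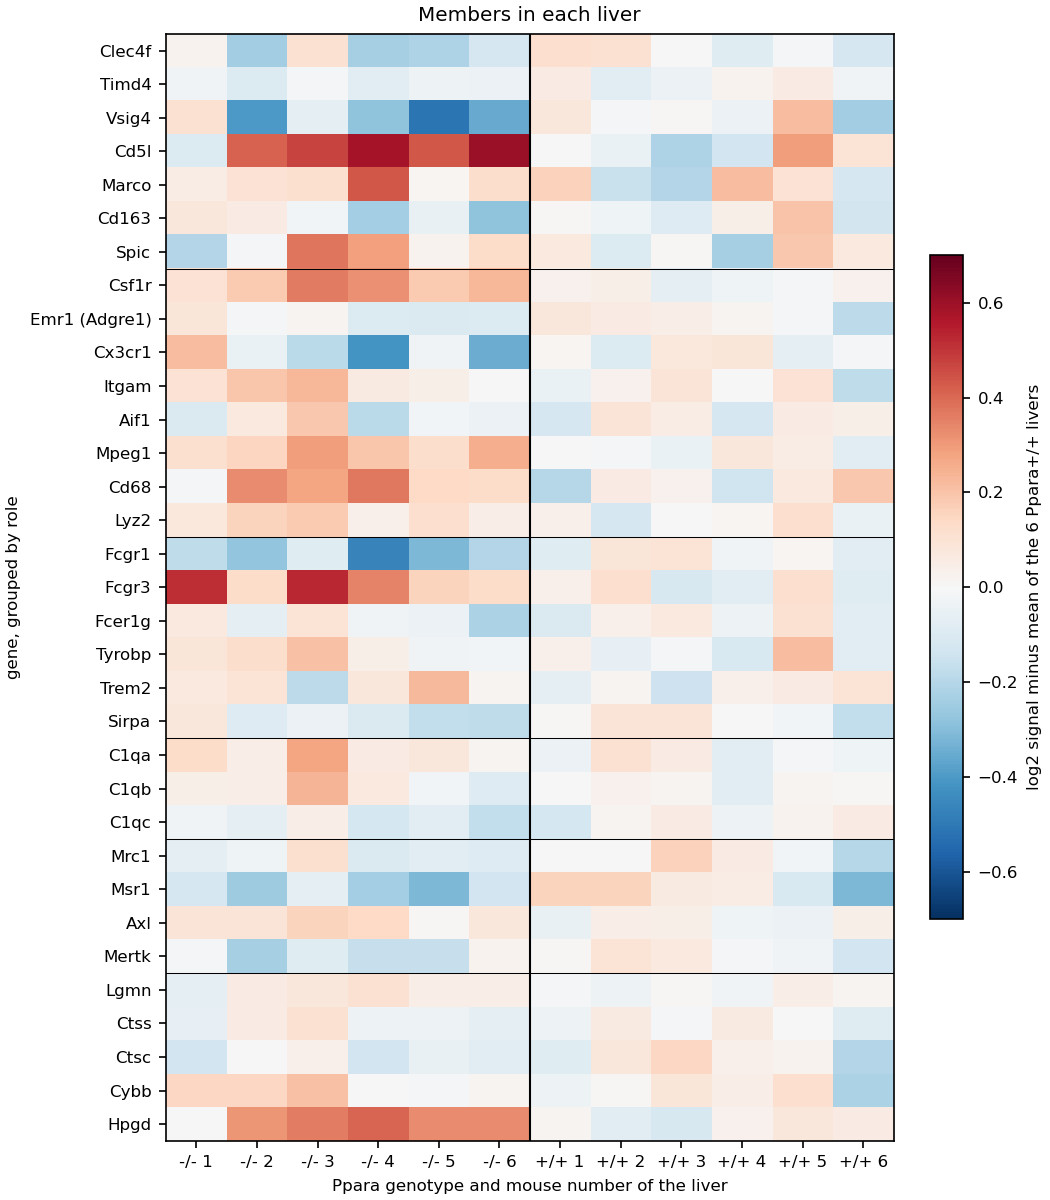
Log2 signal of each member (rows, grouped by role) in each liver (columns, the 6 *Ppara*-/- left of the 6 *Ppara*+/+), shown as the difference from the mean of the 6 *Ppara*+/+ livers, red for higher and blue for lower. *Cd5l* and *Hpgd* are red in *Ppara*-/- mice 2 to 6 and not in mouse 1, and *Fcgr1* is blue in the *Ppara*-/- livers.

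Stretches of 4 promoters are shown because these called members hold the core motif of PU.1, the factor named at the outset, near the start of the gene. They come from RefSeq windows of 250 bases before to 50 bases after each start on GRCm38.p6, and the capitals mark the motif, which reads GAGGAA on the other strand. The *Fcgr3* stretch is chr1:171059387-171059426 (minus strand), *Cd5l* is chr3:87357798-87357837 (plus), *Fcgr1* is chr3:96294002-96294041 (minus) and *Hpgd* is chr8:56294305-56294344 (plus).
Fcgr3: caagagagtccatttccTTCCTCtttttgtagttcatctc
Cd5l: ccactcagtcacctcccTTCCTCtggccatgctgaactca
Fcgr1: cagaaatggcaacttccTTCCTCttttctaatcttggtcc
Hpgd: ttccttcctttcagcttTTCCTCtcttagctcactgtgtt

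The motif begins 6 bases before the start of *Fcgr3*, 66 before *Cd5l*, 55 before *Fcgr1* and 230 before *Hpgd*. *Fcgr1*, which fell, and *Fcgr3*, which rose, share a run of 14 bases across it, TTCCTTCCTCTTTT. The window of *Mpeg1* did not hold these letters, and *Csf1r*, *Adgre1*, *Tyrobp*, *Sirpa*, *C1qa* and *Msr1* were not analysed here. Of the 27 members with a window, 17 held GAGGAA on either strand, beside 31.3% of 27025 genes with a window. The 17 included members that were not called, such as *Vsig4*, *Marco*, *Cd68*, *C1qb* and *C1qc*. A direct repeat of the kind PPARα binds with its partner RXR, AGGTCA and again AGGTCA with 1 base between, on either strand, was in 0 of the 27 and in 0.0481% of genes. A match of letters is not a bound site, the PU.1 motif was chosen after these windows had been looked at, and no test was made.

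Genes around the members were counted in 6 lists. Over all genes 7.24% were called and 20.9% had an unadjusted p under 0.05. Among genes above the median in mean signal, fitted on their own, these shares were 20.2% and 34.6%. Of 17 growth factors and transcription factors of macrophages, 1 was called higher and 1 lower, with 8 at an unadjusted p under 0.05. *Irf8*, a transcription factor of monocytes and macrophages, read 8.44, 8.56, 8.73, 8.50, 8.43 and 8.66 in *Ppara*-/- livers, against 8.45, 8.38, 8.20, 8.30, 8.33 and 8.29 in *Ppara*+/+ livers (difference 0.23, adjusted p = 0.034, limma). *Nr1h3*, the oxysterol receptor LXRα, which hepatocytes also express, averaged 8.47 ± 0.15 in *Ppara*-/- livers and 8.82 ± 0.19 in *Ppara*+/+ livers (difference -0.34, adjusted p = 0.033). Each of these calls was kept in 4 of the 12 fits that left out 1 liver, and with fetal sex as a covariate the adjusted p was 0.092 for both. *Runx1*, a factor of blood cell formation, differed by 0.18 (adjusted p = 0.056) and *Gdf2*, which encodes BMP9, by -0.14 (adjusted p = 0.15).

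Of 18 further genes of Kupffer cells and resident macrophages, 1 was called, lower, with 5 at an unadjusted p under 0.05. *Pltp*, the phospholipid transfer protein, averaged 8.34 ± 0.09 in *Ppara*-/- livers and 8.56 ± 0.11 in *Ppara*+/+ livers (difference -0.22, adjusted p = 0.033, limma), and the call was kept in 6 of the 12 fits that left out 1 liver and lost with fetal sex as a covariate (adjusted p = 0.10). *Lpl* (-0.13), *Vcam1* (0.23) and *Stab1* (0.16), a lipase, an adhesion molecule and a scavenger receptor, were not called, with adjusted p between 0.056 and 0.076. The median of the list was -0.03.

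Of 13 partners in the uptake of dead cells, 1 was called higher and 1 lower, with 5 at an unadjusted p under 0.05. *Lrp1*, a large endocytic receptor that hepatocytes also carry, read 10.68, 10.41, 10.55, 10.39, 10.40 and 10.54 in *Ppara*-/- livers, against 10.90, 11.00, 10.97, 10.91, 10.84 and 10.79 in *Ppara*+/+ livers. The groups did not overlap, and *Lrp1* fell by 0.41 (adjusted p = 6.5e-04, limma). *Mfge8*, which bridges phosphatidylserine to phagocyte integrins, rose by 0.32, with 8.75 ± 0.11 in *Ppara*-/- livers and 8.42 ± 0.14 in *Ppara*+/+ livers (adjusted p = 0.011). Both calls were kept whichever liver was left out.

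Of 16 partners in the lysosome and phagosome, 1 was called, with 7 at an unadjusted p under 0.05. The mean of this list ran between 10.38 and 10.48 in *Ppara*-/- livers and between 10.28 and 10.38 in *Ppara*+/+ livers, and its median difference was 0.05. *Gpnmb*, a membrane glycoprotein of lipid-laden macrophages, read 6.23, 6.99, 6.86, 7.26, 6.91 and 6.98 in *Ppara*-/- livers, against 6.22, 6.23, 5.88, 6.30, 6.29 and 6.10 in *Ppara*+/+ livers. Again *Ppara*-/- mouse 1 lay within the *Ppara*+/+ range, with the other 5 *Ppara*-/- livers above it. *Gpnmb* rose by 0.70 (SE 0.13, adjusted p = 0.0058, limma) and was called whichever liver was left out. Its means, 6.87 in *Ppara*-/- livers and 6.17 in *Ppara*+/+ livers, lay below the median of all genes, 7.15.

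None of 10 genes of red cell clearance and heme iron was called by limma, with 3 at an unadjusted p under 0.05. The difference was positive in 9 and negative in 1, with a median of 0.06, beside 0.01 over all genes. *Hmox1*, which opens the heme ring, averaged 10.47 ± 0.26 in *Ppara*-/- livers and 10.23 ± 0.14 in *Ppara*+/+ livers (adjusted p = 0.20). None of 18 genes of inflammatory activation was called either, with 5 at an unadjusted p under 0.05. Of these genes 13 had a positive difference and 5 a negative one, with a median of 0.08. Their widest differences were in *Ccl3*, a chemokine, at 7.80 ± 0.73 in *Ppara*-/- livers and 7.03 ± 0.45 in *Ppara*+/+ livers (0.77, adjusted p = 0.14), and in *Saa3*, an acute-phase protein that macrophages make, at 9.09 ± 0.35 in *Ppara*-/- livers and 8.39 ± 0.58 in *Ppara*+/+ livers (0.70, adjusted p = 0.088). The spread among livers of 1 genotype was of the same order as these differences.

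Markers of other cells that a whole liver holds were counted beside the members. None of 7 monocyte, 14 granulocyte, 10 sinusoidal endothelial, 9 hepatocyte, 8 erythroid, 5 megakaryocyte or 9 lymphocyte markers was called by limma. At an unadjusted p under 0.05 there were 2, 3, 3, 0, 1, 0 and 1 of these, in that order, beside 20.9% of all genes. Of 10 dendritic cell markers 1 was called, higher, and of 9 stellate cell markers 1 was called higher and 1 lower. At that unadjusted threshold there were 5 dendritic cell and 3 stellate cell markers. The mean of the granulocyte list ran between 10.55 and 10.78 in *Ppara*-/- livers and between 10.49 and 10.74 in *Ppara*+/+ livers. That of the monocyte list ran between 8.71 and 8.97 in *Ppara*-/- livers and between 8.59 and 8.86 in *Ppara*+/+ livers. The genotypes overlapped in both, and in the hepatocyte list, which ran between 13.09 and 13.11 in *Ppara*-/- livers and between 13.06 and 13.13 in *Ppara*+/+ livers. *Ppara*-/- mouse 3, the highest of its genotype in most members, was also the highest of its genotype in the monocyte (8.97) and granulocyte (10.78) lists. The part of these cells in the macrophage values was not tested.

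The stellate cell list followed the animal numbers. Its mean was 9.05 in *Ppara*-/- mouse 1 and 8.92 to 9.0 in the other *Ppara*-/- livers, against 9.07 to 9.18 in *Ppara*+/+ mice 1 to 4, the other 4 of the 5 lowest numbers, and 8.89 and 8.91 in *Ppara*+/+ mice 5 and 6. The sinusoidal endothelial list read 9.47 in *Ppara*-/- mouse 1 and 9.33 to 9.46 in the other *Ppara*-/- livers, against 9.48 to 9.54 in *Ppara*+/+ mice 1 to 4 and 9.36 and 9.30 in *Ppara*+/+ mice 5 and 6. *Cd5l* was low in the same 5 low-numbered livers in which the stellate cell list was high, and the part of this in the result was not tested.

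**Figure D5:**
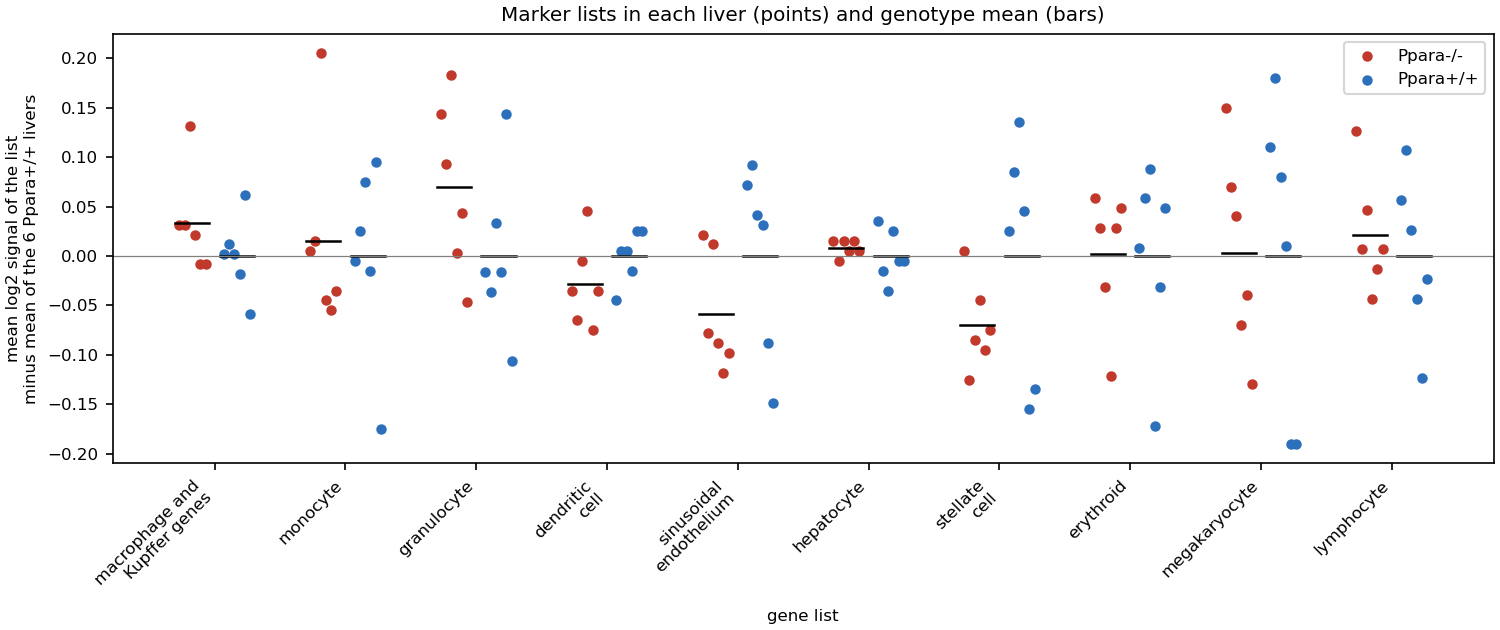
Mean log2 signal of the member list and of 9 lists of marker genes of other cells (x axis), shown as the difference from the mean of the 6 *Ppara*+/+ livers (y axis), with 1 point per liver, *Ppara*-/- in red left of *Ppara*+/+ in blue, and a bar for each genotype mean. The genotypes overlap in every list, the members running between 9.06 and 9.20 in *Ppara*-/- livers and between 9.01 and 9.13 in *Ppara*+/+ livers.

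The calls were set against fetal sex, because the genotypes differed in it. With sex as a covariate 1 of the 33 members was called, beside 4.26% of all genes. In that fit the adjusted p was 0.12 for *Cd5l*, 0.11 for *Fcgr3* and 0.064 for *Fcgr1* (limma), and the differences were 0.35, 0.26 and -0.24. In the 8 female livers alone, 5 *Ppara*-/- and 3 *Ppara*+/+, the differences were 0.22 for *Csf1r*, 0.20 for *Mpeg1*, 0.31 for *Fcgr3*, 0.23 for *Hpgd*, 0.27 for *Cd5l* and -0.20 for *Fcgr1*. Each kept its direction, and none kept its call by limma (adjusted p between 0.24 and 0.58), while 5 of the 33 members had an unadjusted p under 0.05, beside 10.2% of all genes. The part of fetal sex beyond these values was not tested.

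The calls were also set against the animal numbers. Within the 6 lowest numbers, 2 *Ppara*-/- and 4 *Ppara*+/+ livers, the differences were 0.15 for *Csf1r*, 0.12 for *Mpeg1*, 0.33 for *Fcgr3*, 0.18 for *Hpgd* and -0.24 for *Fcgr1*. Within the 6 highest, 4 *Ppara*-/- and 2 *Ppara*+/+ livers, they were 0.26, 0.22, 0.27, 0.29 and -0.24 in the same order of genes. The direction of every called member, *Cd5l* included, was the same on both sides. With the numbers as a block, *Csf1r* (adjusted p = 0.025, limma) and *Hpgd* (0.033) kept their calls, beside 4.69% of all genes called. *Mpeg1* (0.063), *Fcgr1* (0.052) and *Fcgr3* (0.075) did not. With the number as a covariate each of the 6 kept its call (adjusted p between 0.0066 and 0.026), beside 9.21% of all genes called.

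In the exact Mann-Whitney test the 4 members without overlap reached p = 0.0022, the smallest that 6 livers against 6 allow, and an adjusted p of 0.06. No gene of the array was called by that test, with 8 of the 33 members at an unadjusted p under 0.05, beside 18.5% of all genes.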

How the data were processed

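Whole-liver RNA of 6 *Ppara*-/- and 6 *Ppara*+/+ fetuses, all above an RNA integrity number of 8, was hybridized to Affymetrix Mouse Gene ST arrays, 1 array per liver. The deposited values are on the log2 scale and were made by the authors with RMA, which subtracts background, brings arrays to 1 distribution and combines the probes of a probeset. The sources used here give neither RMA's version nor a genome build, and no probe positions or detection calls were used here. RMA can shrink small differences and leaves dim probesets noisy. Arrays carry no read depth, so their number limits the precision.

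Of 35556 probesets, 21789 had 1 gene symbol in the platform's annotation, 1621 several and 12146 none. Where a gene had several probesets (999 genes), that of highest mean was used, leaving 19938 genes. No dim genes were left out. Genotypes were compared two-sided in limma 3.58.1 (lmFit, eBayes; R 4.3.3) without covariates, with Benjamini-Hochberg adjustment of p-values over all genes and a threshold of 0.05. Pairs of members were correlated after removal of genotype means, with 100000 permutations within genotype. Because some livers shared a litter, the livers were not independent, and p-values, which treat them as such, can be too small. Tables and figures used Python 3.11.15, pandas 2.3.3, scipy 1.17.1 and matplotlib 3.10.9. Promoter windows came from RefSeq (GRCm38.p6).

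Values in every liver were given for called members, Kupffer cell markers and C1q chains, and up to 4 genes of smallest p were named from each list. Values per liver of other called list genes, and members gaining a call under another setting, were added after their values were seen. The members and lists were chosen with earlier results of these data known. Alternatives were a second quantile normalization, arrays shifted to 1 median, leaving out genes under the 25th or the 50th percentile of mean signal, averaging a gene's probesets or testing each, a trended and robust eBayes, array weights, a block for the mouse number, a sex score from *Xist* and 3 Y-linked genes, an erythroid score, the animal number as a covariate or as a block of the 6 lowest against the 6 highest, the exact Mann-Whitney test and each liver left out. Female livers alone were added after the data were seen.

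The fit was tested on simulated data drawn from each gene's mean and spread.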

Additional observations from a re-analysis of the deposited data

Results flagged for a closer look

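Each member was looked over for a liver standing far from the others of its genotype, by Dixon's test at 95%, which chance alone meets in about 1 of 20 groups. It was met in 7 of 66 groups. *Ppara*-/- mouse 1 stood apart in 3 members, always as the lowest of its genotype. It read 8.76 in *Cd5l* (the other *Ppara*-/- livers 9.27 to 9.46), 10.92 in *Hpgd* (11.23 to 11.33) and 10.70 in *Lgmn* (10.81 to 10.87). *Ppara*-/- mouse 4 was the highest of its genotype in *Marco* at 7.67, where the others read 7.25 to 7.36. *Ppara*-/- mouse 3 was the highest in *Mrc1* at 9.62, where the others read 9.41 to 9.48. Among *Ppara*+/+ livers, mouse 6 was the lowest in *Adgre1* at 9.28 (9.45 to 9.54) and mouse 4 the lowest in *C1qb* at 10.61 (10.68 to 10.71).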

How the results depend on the processing

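No called member changed direction in any setting. Of 780 results of uncalled members under other settings, 31 had the other sign. The counts of 5 higher and 1 lower were the same under both other normalizations, both filters, both other uses of probesets, the trended and robust fit, and the erythroid and animal number covariates, where 6.84% to 11.8% of all genes were called, or 20.2% with the filter at the 50th percentile. By limma there were 4 higher and 3 lower with array weights (13.8% of all genes called), 3 and 1 with the replicate block (8.12%), 1 and 0 with the sex covariate (4.26%), 2 and 0 with a block for low against high animal numbers (4.69%), and 0 and 0 within the lowest 6 numbers (0.968%), within the highest 6 (1.12%), in female livers alone (0.782%) and, in the exact Mann-Whitney test, 0 and 0 with no gene called. At an unadjusted p under 0.05 there were 10 members with the sex covariate (17.4% of all genes), 6 with the block (17.4%), 3 within the lowest numbers (11.4%), 4 within the highest (12%), 5 in females (10.2%) and 8 by the Mann-Whitney test (18.5%). The fits within animal numbers and in females use fewer livers. Leaving out 1 liver gave 2 to 6 higher (2 without *Ppara*-/- mouse 4 or *Ppara*+/+ mouse 1 or 3, and 6 without *Ppara*-/- mouse 1) and 0 to 2 lower, beside 4.27% to 12.6% of all genes called. Whether the mouse numbers pair the livers was not tested. Same-numbered livers correlated at 0.02 to 0.39 in their deviations from the genotype means, and other pairs at -0.34 to 0.43. Of the 6 *Ppara*-/- livers, 3 went best with their own number. With the replicate block, *Mpeg1* (adjusted p = 0.057) and *Fcgr3* (0.062) were not called. For *C1qa* with *C1qc*, r was 0.54 after renewed quantile normalization (permutation p = 0.089, adjusted 0.13) and 0.27 with the genotype means kept (permutation p = 0.49). Leaving out 1 liver gave r of 0.52 to 0.85 for *C1qa* with *C1qb*, 0.56 to 0.79 for *C1qa* with *C1qc*, 0.46 to 0.83 for *C1qb* with *C1qc*, 0.50 to 0.69 for *Fcer1g* with *Tyrobp* and 0.22 to 0.62 for *Clec4f* with *Timd4*, the lowest of each without *Ppara*-/- mouse 3, and -0.49 to 0.04 for *Csf1r* with *Adgre1*, whose sign turned without *Ppara*-/- mouse 1. *C1qb* with *C1qc* passed the threshold without *Ppara*+/+ mouse 1 (permutation, adjusted 0.02) or 2 (0.044). The cause was not tested. The number of arrays, 6 a genotype, limits the precision.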

Other observations

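Of the markers of other cells, 3 were called, among 10 dendritic cell and 9 stellate cell markers, beside 7.24% of all genes. None of the 7 monocyte, 14 granulocyte, 10 sinusoidal endothelial, 9 hepatocyte, 8 erythroid, 5 megakaryocyte or 9 lymphocyte markers was called. *Des*, the muscle-type intermediate filament protein of stellate cells, read 7.21, 7.01, 7.42, 7.27, 7.09 and 7.11 in *Ppara*-/- livers, against 7.70, 7.50, 7.86, 7.38, 7.65 and 7.35 in *Ppara*+/+ livers. It fell by 0.39 (adjusted p = 0.018, limma) and was called whichever liver was left out and with fetal sex as a covariate (0.033). *Reln*, the secreted glycoprotein reelin, which stellate cells also make, averaged 11.02 ± 0.04 in *Ppara*-/- livers and 10.85 ± 0.07 in *Ppara*+/+ livers (difference 0.16, adjusted p = 0.034). These 2 of the 9 stellate cell markers thus moved in opposite directions, and *Reln* kept its call in 3 of the 12 fits that left out 1 liver and lost it with the sex covariate (adjusted p = 0.099). *Ccr7*, the chemokine receptor of migrating dendritic cells, read 6.90, 6.77, 6.88, 7.07, 6.84 and 6.96 in *Ppara*-/- livers, against 6.70, 6.75, 6.48, 6.76, 6.59 and 6.68 in *Ppara*+/+ livers (difference 0.24, adjusted p = 0.025). The groups did not overlap in *Ccr7*, narrowly, at 6.77 against 6.76. Its means, 6.90 and 6.66, lay below the median of all genes, 7.15. The call of *Ccr7* was kept in 8 of the 12 fits that left out 1 liver (adjusted p up to 0.06, limma). It was lost with the sex covariate (0.075). *Ccr7* was the 1 called of 10 dendritic cell markers, of which 4 had a positive and 6 a negative difference (median -0.07). By limma 5 of the 10 had an unadjusted p under 0.05, beside 20.9% of all genes. *Itgax* (-0.19), *H2-Aa* (-0.17) and *Zbtb46* (-0.13) were lower and not called.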
